A study of Homo sapiens with 6 samples.

Results

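Glycolysis and the response to low oxygen were described through 36 genes in HEY, a line of human ovarian cancer cells, upon knockdown of the splicing factor PQBP1. The genes were chosen by name for their known roles, and no measured value enters the rule. Earlier results of these data were known when the choice was made. They are 17 enzymes of the glycolytic route from hexokinase to lactate dehydrogenase, 4 kinases that set its rate or its outflow, 5 genes of oxygen sensing and 10 genes known as targets of the hypoxia-inducible factors. All 36 were found among the 32679 genes of the deposited table. Poly(A) RNA was sequenced in pairs from 3 samples with a control hairpin (shNC) and 3 with a hairpin against PQBP1 (shPQBP1), which the submitters describe as biological replicates. By the labels every sample was taken at day 3, the shPQBP1 samples had received doxycycline at 1 µg ml-1 to induce the hairpin, and the shNC samples were untreated, so that the effect of the hairpin and of doxycycline cannot be told apart here. The methods describe lentiviral lines kept after puromycin selection, and the labels name a single knockdown construct. Each value is an FPKM, the number of fragments scaled by transcript length and by the mapped fragments of the sample. The scaling by length allows levels to be compared between genes. It does not make the totals of the samples equal. All genes summed to 294970.32 to 318484.33 FPKM in the shNC samples and to 278285.8 to 287422.62 in the shPQBP1 samples.

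Glycolysis splits glucose into pyruvate in the cytosol, and lactate dehydrogenase turns pyruvate into lactate when it does not enter the mitochondria. Many tumour cells run this route at a high rate even with oxygen present. In low oxygen the transcription factors HIF1A and EPAS1 escape hydroxylation by the EGLN enzymes and degradation through VHL, bind the sequence ACGTG or GCGTG near their target genes, and raise the transcription of glycolytic enzymes and of genes such as VEGFA, CA9 and BNIP3. Both factors are controlled largely at the level of the protein, which RNA-seq does not measure.

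The knockdown was seen in every sample. PQBP1 stood at 7.18, 6.67 and 6.93 FPKM with the control hairpin and at 1.68, 1.72 and 1.44 FPKM with the PQBP1 hairpin (log2 fold change -2.04, standard error 0.10, limma adjusted p = 0.00154). The keratins KRT7, KRT8 and KRT18 and the vimentin gene VIM ranged from 52.76 to 1342.76 FPKM, KRT19 had 1.19 to 2.1 FPKM, and 7 of the 10 epithelial and ovarian carcinoma markers reached a mean FPKM of 1, while EPCAM and WT1 averaged under 1 FPKM and MUC16 was at 0 in 5 samples and at 0.01 in the other. The summed FPKM of these markers was 1358.49 to 1508.77 in the shNC samples and 1520.08 to 1616.87 in the shPQBP1 samples. Of the leukocyte, endothelial and fibroblast markers, CD68 and CDH5 alone reached a mean FPKM of 1, and the leukocyte gene PTPRC was listed at 0 in every sample. The sums were 9.12 to 15.75 (shNC) and 12.29 to 21.26 (shPQBP1) for the leukocyte list, 2.43 to 3.29 and 3.25 to 3.91 for the endothelial list, and 0.47 to 1.22 and 0.27 to 1.1 for the fibroblast and pericyte list. The part of these markers in the results was not tested. The first shNC sample stood apart, with correlations of log2 FPKM to the other samples of 0.926 to 0.955, and the log2 fold changes of members that move by over 1.5 times without it are also given without it.

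The sequences before the start sites of BNIP3, EPAS1, PFKP, LDHA and EGLN1 are shown because these 5 members had the smallest p-values between the groups and because the hypoxia-inducible factors act through a short motif in such sequences. Each window holds the 250 bases before the RefSeq start site (GRCh38.p14), 5′ to 3′ on the strand of the gene, with matches to ACGTG or GCGTG on either strand in capitals. The windows are chr10:131981924-131982173 on the minus strand for BNIP3, chr2:46297157-46297406 on the plus strand for EPAS1 (within the annotated span of the gene, upstream of its canonical start), chr1:231422288-231422537 on the minus strand for EGLN1, chr11:18394313-18394562 on the plus strand for LDHA and chr10:3067720-3067969 on the plus strand for PFKP.
BNIP3: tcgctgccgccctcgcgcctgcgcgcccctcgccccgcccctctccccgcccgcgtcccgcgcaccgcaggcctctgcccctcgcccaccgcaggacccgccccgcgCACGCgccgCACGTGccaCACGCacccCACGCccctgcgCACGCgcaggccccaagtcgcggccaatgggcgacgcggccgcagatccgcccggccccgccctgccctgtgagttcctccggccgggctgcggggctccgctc
EPAS1: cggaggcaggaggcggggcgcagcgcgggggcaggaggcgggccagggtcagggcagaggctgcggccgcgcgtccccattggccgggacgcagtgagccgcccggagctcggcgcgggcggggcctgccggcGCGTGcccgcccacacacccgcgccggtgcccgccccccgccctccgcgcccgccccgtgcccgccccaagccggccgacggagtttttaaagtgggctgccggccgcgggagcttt
EGLN1: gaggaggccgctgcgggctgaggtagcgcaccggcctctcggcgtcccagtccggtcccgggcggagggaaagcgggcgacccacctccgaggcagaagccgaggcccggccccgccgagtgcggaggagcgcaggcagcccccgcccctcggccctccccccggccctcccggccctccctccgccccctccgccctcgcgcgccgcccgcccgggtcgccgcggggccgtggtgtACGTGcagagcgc
LDHA: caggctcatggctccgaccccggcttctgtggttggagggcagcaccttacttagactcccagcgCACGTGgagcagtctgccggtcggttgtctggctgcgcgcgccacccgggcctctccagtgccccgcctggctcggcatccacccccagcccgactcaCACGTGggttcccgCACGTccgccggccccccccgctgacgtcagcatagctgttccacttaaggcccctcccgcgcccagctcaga
PFKP: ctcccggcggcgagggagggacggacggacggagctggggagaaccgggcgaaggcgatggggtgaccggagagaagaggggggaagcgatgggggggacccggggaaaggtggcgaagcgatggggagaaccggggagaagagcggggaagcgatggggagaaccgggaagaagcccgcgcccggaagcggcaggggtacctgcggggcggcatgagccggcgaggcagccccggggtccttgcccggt
The BNIP3 window held 6 matches and the LDHA window 5, where CACGTG, which reads the same on both strands, counts on each. The EPAS1 and EGLN1 windows held 1 match each, at 117 and 13 bases before the start. The PFKP window held 0 matches. Its RefSeq start lies 422 bases past the canonical start at 3067548, so the whole window lies within the gene. The bases before the canonical PFKP start were not searched. For the other 4 genes shown, the RefSeq and canonical starts coincide. The windows of GAPDH, PFKM, PGAM1 and P4HA2 also lie past the canonical start, that of HK1 does in part, and all are counted below. A window was found for 32 of the 36 members, and none for BNIP3L, NDRG1, VEGFA and VHL. ACGTG was present in 16 of the 32 windows (50.0%), against 24.6% of the windows of 8153 tested genes and 20.4% of 19094 windows in all. GCGTG was present in 13 of the 32 (40.6%), against 48.6% and 37.8%. Either motif was present in 24 of the 32 (75.0%), against 60.6% and 49.0%. The 32 windows include those of ALDOC, PDK1, PDK3, PFKFB4, EGLN3, CA9, CA12 and ANKRD37, which were too low to be tested. The members and the tested genes are therefore not compared like for like. Known targets of the hypoxia-inducible factors were also part of the choice of members. The members' windows had a median GC content of 71.2%, against 66.0% for the tested genes, and a match of letters does not show that a factor binds.

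The members covered a wide range of levels in HEY cells. GAPDH, which oxidises glyceraldehyde phosphate, was the most abundant with 2496 ± 277 FPKM in the shNC samples (SD, n = 3). The enolase ENO1 followed with 371.2 ± 33.8 and the triosephosphate isomerase TPI1 with 305.4 ± 81.1, and the mutase PGAM1 and LDHA had 235.2 ± 33.4 and 204.3 ± 19.1. The 17 glycolytic enzymes together summed to 4764, 3906 and 3978 FPKM in the shNC samples against 3573, 3751 and 3764 in the shPQBP1 samples, so that every shPQBP1 sum was below every shNC sum. Without GAPDH the sums were 1952, 1528 and 1682 against 1401, 1447 and 1506. The FPKM of all genes also summed to less in every shPQBP1 sample than in every shNC sample. As a share of all FPKM in the sample, the 17 enzymes held 1.31% to 1.5% in the shNC samples and 1.26% to 1.35% in the shPQBP1 samples, and these ranges overlapped. The oxygen-sensing genes and hypoxia targets lay far lower, and the most abundant of them in the shNC samples, HIF1A, had 22.31 ± 9.71 FPKM. In bulk RNA, a lower value can stand for fewer cells that express a gene or for less RNA per cell, and these cannot be told apart.

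**Figure D1:**
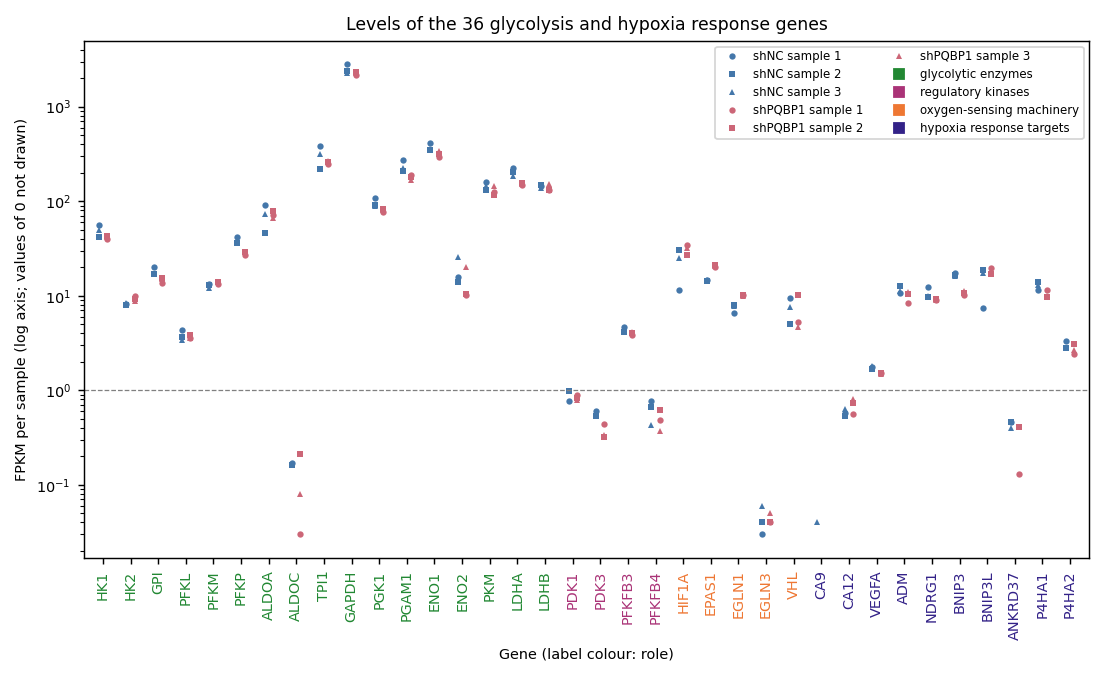
FPKM of each of the 36 genes in each of the 6 samples on a log axis, with shNC samples in blue, shPQBP1 samples in red, the sample number as the marker shape and the role of the gene as the label colour. The dashed line marks an FPKM of 1, and the 8 genes whose values lie under it were not tested.

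Of the 36 genes, 28 averaged 1 FPKM or more across the 6 samples and entered the test. The 8 others were ALDOC, PDK1, PDK3, PFKFB4, EGLN3, CA9, CA12 and ANKRD37. CA9, a carbonic anhydrase that is a common marker of hypoxic tumour cells, was listed at 0.04 in shNC sample 3 and at 0 in the other samples. EGLN3, a hydroxylase that hypoxia is known to induce, was between 0.03 and 0.06 in every sample. PDK3, a kinase that inactivates pyruvate dehydrogenase, had 0.61, 0.53 and 0.58 FPKM in the shNC samples and 0.44, 0.32 and 0.34 in the shPQBP1 samples, which did not overlap. When all genes with any value above 0 were tested, the log2 fold change of PDK3 was -0.54 (limma adjusted p = 0.34), and none of the 8 genes had an adjusted p under 0.05. PDK3 was the member of the 8 with an unadjusted p under 0.05 in that model over all genes (0.0406). The other 7 overlapped between the groups.

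With p-values from limma adjusted over 11413 genes by Benjamini-Hochberg and a threshold of 0.05, EPAS1 was higher and BNIP3 was lower upon PQBP1 knockdown, and the other 26 tested members did not pass. Over all genes tested, 1.73% were called higher and 1.18% lower by this rule. At an unadjusted p under 0.05, 2 of the 28 were higher and 8 lower, where 11.9% of all genes were higher and 11.7% lower. No member changed by more than 2-fold at an unadjusted p under 0.05, a rule that 1.52% of all genes met. The groups did not overlap in 13 of the 28 members, with 3 higher and 10 lower in the shPQBP1 samples, where 17.3% of all genes were higher and 17.1% lower without overlap. The median log2 fold change of the 28 members was -0.18, against 0.02 for all genes, and 21 of the 28 had a negative sign, against 5387 of the 11413. Without shNC sample 1 the median was -0.09, and 5 members were called at an adjusted p under 0.05, where 466 of 11436 genes were called, against 332 of 11413 with all samples. Without any one of the other 5 samples, 0 members were called, EPAS1 and BNIP3 included. Once the values were corrected for transcript GC content and length, the unadjusted calls were 4 higher and 7 lower, and the adjusted calls 1 higher and 4 lower. Calls rose over all genes as well. Of all 11385 genes in that fit, 1784 were higher and 1361 lower without adjustment, and 565 higher and 373 lower with it. The members without overlap were then 5 higher and 8 lower. With quantile normalization the adjusted calls were 1 higher and 3 lower, where 212 of all genes were higher and 205 lower.

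**Figure D2:**
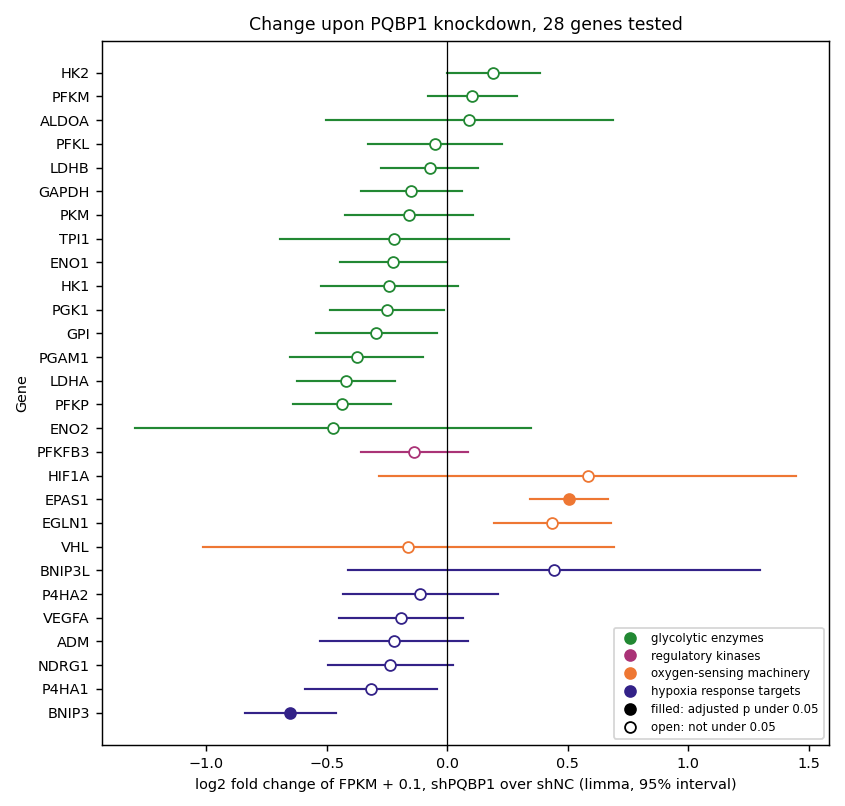
The log2 fold change of FPKM + 0.1 (x axis), shPQBP1 over shNC, for the 28 tested genes (y axis), with 95% intervals from limma and the role of each gene as the colour. EPAS1 at 0.51 and BNIP3 at -0.65 are the filled points, under an adjusted p of 0.05, and the open points of 20 of the other 26 genes lie to the left of 0.

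Among the genes of oxygen sensing, EPAS1 rose. EPAS1 (ENSG00000116016, chromosome 2 of hg38 from 46293667 to 46386697) encodes the alpha subunit of a hypoxia-inducible factor that is close to HIF1A and differs from it in part of its targets. Its FPKM was 14.67, 14.19 and 14.81 in the shNC samples and 20.33, 21.09 and 20.76 in the shPQBP1 samples. The values within each group lay within 1 FPKM of each other and the groups did not overlap. EPAS1 thus differed by 0.51 on the log2 scale (standard error 0.07, 95% interval 0.345 to 0.67, limma adjusted p = 0.0217), or 1.42-fold. The adjusted p was 0.0193 without shNC sample 1, and 0.0739 and 0.0886 without shNC samples 2 and 3. It was 0.0964, 0.103 and 0.119 without shPQBP1 samples 1, 2 and 3, while the log2 fold change stayed between 0.49 and 0.52 in these 6 fits.

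EGLN1, the main hydroxylase that marks the factors for degradation, had 6.53, 8.03 and 7.74 FPKM in the shNC samples and 10.21, 10.06 and 9.89 in the shPQBP1 samples. Every shPQBP1 sample was above every shNC sample. On the log2 scale EGLN1 differed by 0.44 (standard error 0.10, 95% interval 0.19 to 0.68, limma adjusted p = 0.0752), which missed the threshold. Without shNC sample 1, its lowest sample, the log2 fold change was 0.35 with an adjusted p of 0.0489 from limma.

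HIF1A had 11.49, 30.27 and 25.17 FPKM in the shNC samples and 34.74, 26.94 and 31.68 in the shPQBP1 samples, and the groups overlapped. Its log2 fold change was 0.58 with a wide 95% interval, -0.28 to 1.45 (limma adjusted p = 0.346). The low value of shNC sample 1 set much of this difference, and without that sample the log2 fold change was 0.17 (limma adjusted p = 0.504). VHL, the substrate receptor of the ubiquitin ligase that removes the hydroxylated factors, ranged from 4.99 to 9.39 FPKM in the shNC samples and from 4.71 to 10.16 in the shPQBP1 samples, with no separation of the groups. Its log2 fold change was -0.16 (95% interval -1.01 to 0.69), and the sign turned positive without shNC sample 1 (0.04) and without shPQBP1 sample 3 (0.05).

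Among the hypoxia targets, BNIP3 fell. BNIP3 (ENSG00000176171, chromosome 10 of hg38 from 131967684 to 131981967) encodes a protein of the outer mitochondrial membrane that recruits the machinery for removal of mitochondria by autophagy and is also known from cell death. Its FPKM was 17.52, 16.52 and 16.29 in the shNC samples and 10.07, 10.77 and 11.14 in the shPQBP1 samples. No shPQBP1 sample came near the shNC range. The difference on the log2 scale was -0.65 (standard error 0.08, 95% interval -0.84 to -0.46, limma adjusted p = 0.0183), or 0.637-fold. The adjusted p was 0.0198 without shNC sample 1, 0.0636 and 0.0731 without shNC samples 2 and 3, and 0.088, 0.0841 and 0.0852 without shPQBP1 samples 1, 2 and 3. In these 6 fits the log2 fold change stayed between -0.68 and -0.61.

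BNIP3 has processed copies in the genome that can share its reads. The 13 rows of BNIP3 pseudogenes in the table summed to 1.1, 1.9 and 1.3 FPKM in the shNC samples against 3.3, 2.63 and 1.13 in the shPQBP1 samples. With these rows added, the totals were 18.62, 18.42 and 17.59 against 13.37, 13.4 and 12.27, and the groups remained apart. BNIP3L, the closest relative of BNIP3 and also a receptor for the removal of mitochondria, had 7.33, 18.76 and 17.21 FPKM in the shNC samples and 19.42, 16.86 and 18.32 in the shPQBP1 samples. These groups overlapped, and the log2 fold change of 0.44 (limma adjusted p = 0.454) was 0.02 without shNC sample 1. BNIP3 made up 70.5%, 46.8% and 48.6% of the summed FPKM of both genes in the shNC samples and 34.1%, 39.0% and 37.8% in the shPQBP1 samples.

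**Figure D3:**
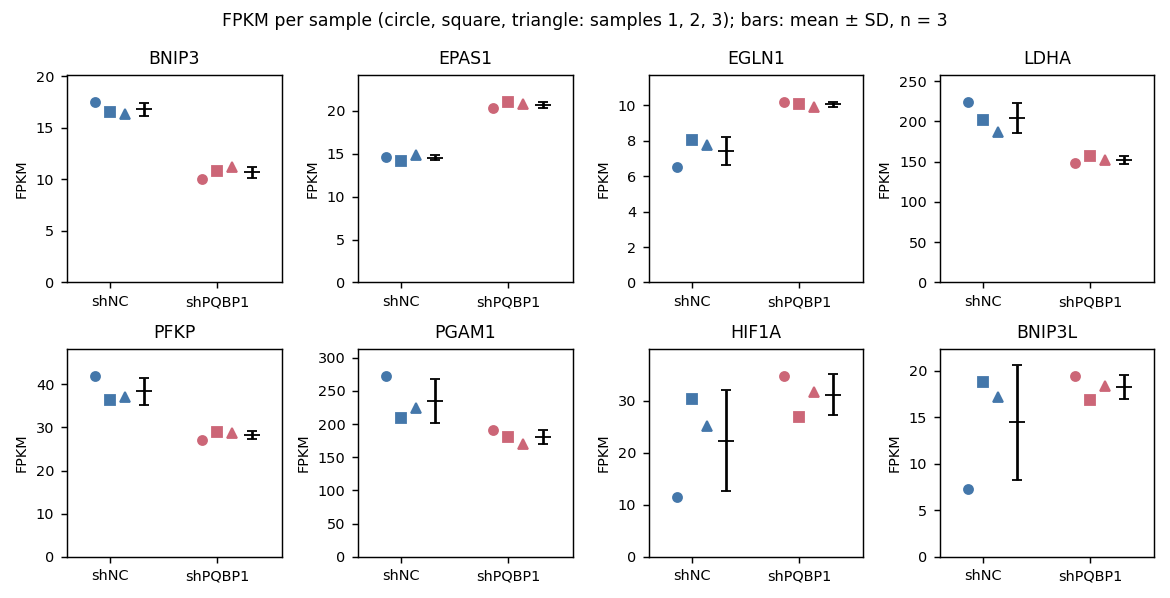
FPKM (y axis, from 0) of 8 genes in the 3 shNC samples (blue) and the 3 shPQBP1 samples (red), with the mean ± SD (n = 3) beside each group. BNIP3, LDHA, PFKP and PGAM1 are lower and EPAS1 and EGLN1 higher in every shPQBP1 sample, while shNC sample 1 (circle) lies far below the other samples in HIF1A and BNIP3L.

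The other hypoxia targets did not pass the test. P4HA1, a prolyl hydroxylase subunit that collagen folding needs, had 11.4, 14.1 and 13.13 FPKM in the shNC samples and 11.37, 9.65 and 9.93 in the shPQBP1 samples. The groups met almost without a gap, and the log2 fold change was -0.32 (limma adjusted p = 0.17). After the GC and length correction it was -0.49 (limma adjusted p = 0.0131). P4HA2, its relative, had 2.96 ± 0.312 against 2.737 ± 0.342 FPKM and overlapping groups (log2 fold change -0.11, and -0.03 without shNC sample 1). VEGFA, the main growth factor for blood vessels, was low, with 1.74, 1.69 and 1.81 FPKM in the shNC samples and 1.54, 1.51 and 1.5 in the shPQBP1 samples. Every shPQBP1 value was below every shNC value, and the log2 fold change was -0.19 (limma adjusted p = 0.311). NDRG1, a gene that hypoxia and iron loss are known to induce, had 10.68 ± 1.38 and 9.01 ± 0.115 FPKM without overlap (log2 fold change -0.24, limma adjusted p = 0.241, and -0.13 without shNC sample 1). ADM, the peptide hormone adrenomedullin, had 11.59 ± 0.974 and 9.97 ± 1.36 FPKM with overlap (SD, n = 3 each).

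No glycolytic enzyme passed an adjusted p of 0.05, and 6 of the 16 tested had a lower value at an unadjusted p under 0.05, namely PFKP, LDHA, PGAM1, GPI, PGK1 and ENO1. None of the 16 had a higher value at that threshold. Over all genes tested, 11.7% were lower and 11.9% higher by this rule. The median log2 fold change of the 16 was -0.22, against 0.02 for all genes. A negative sign was found in 13 of the 16, against 5387 of the 11413 genes. After the GC and length correction the median was -0.11, and PFKP and LDHA were under an adjusted p of 0.05, as were 938 of all 11385 genes in that fit.

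The phosphofructokinase PFKP, an isozyme of the step that commits sugar to glycolysis, had 41.96, 36.29 and 36.98 FPKM in the shNC samples and 27.2, 28.94 and 28.83 in the shPQBP1 samples. The groups stood well apart. For PFKP the log2 fold change came to -0.44 (standard error 0.08, 95% interval -0.64 to -0.23, limma adjusted p = 0.0535). Without shNC sample 1 it was -0.37 (limma adjusted p = 0.0392), and after the GC and length correction it was -0.26 (limma adjusted p = 0.0297). The other isozymes of this step did not follow. PFKM had 12.81 ± 0.655 and 13.77 ± 0.338 FPKM (log2 fold change 0.11, 95% interval -0.08 to 0.29) and PFKL 3.813 ± 0.491 and 3.657 ± 0.142 (SD, n = 3 each). The sign of PFKL, -0.05, turned to 0.16 after the GC and length correction and to 0.05 without shNC sample 1. PFKP therefore made up 70.2%, 68.7% and 70.4% of the summed FPKM of the 3 isozymes in the shNC samples and 61.6%, 61.9% and 62.3% in the shPQBP1 samples.

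LDHA, the lactate dehydrogenase subunit that favours the making of lactate, had 224.49, 201.97 and 186.47 FPKM in the shNC samples and 148.05, 157.25 and 151.69 in the shPQBP1 samples. The lowest shNC value was above the highest shPQBP1 value by more than the range of the shPQBP1 samples, but by less than the range of the shNC samples. For LDHA it came to -0.42 on the log2 scale (standard error 0.08, 95% interval -0.62 to -0.22, limma adjusted p = 0.0568). Without shNC sample 1 it was -0.35 (limma adjusted p = 0.0462). LDHB, the subunit that favours the reverse reaction, had 144.6 ± 5.61 and 137.8 ± 12.3 FPKM (SD, n = 3 each) and overlapping groups. The share of LDHA in the sum of both was 60.6%, 57.5% and 57.4% in the shNC samples and 53.2%, 54.4% and 49.9% in the shPQBP1 samples. The row of the LDHA pseudogene LDHAP4, which can share reads with LDHA, had 9.52, 7.33 and 7.56 FPKM against 1.75, 4.94 and 6.38. Its log2 fold change was -1.06 (limma adjusted p = 0.225), and it was the only LDHA pseudogene row tested. LDHA with its 5 pseudogene rows summed to 234.98, 209.79 and 194.66 FPKM in the shNC samples against 150.5, 162.89 and 158.88 in the shPQBP1 samples.

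**Figure D4:**
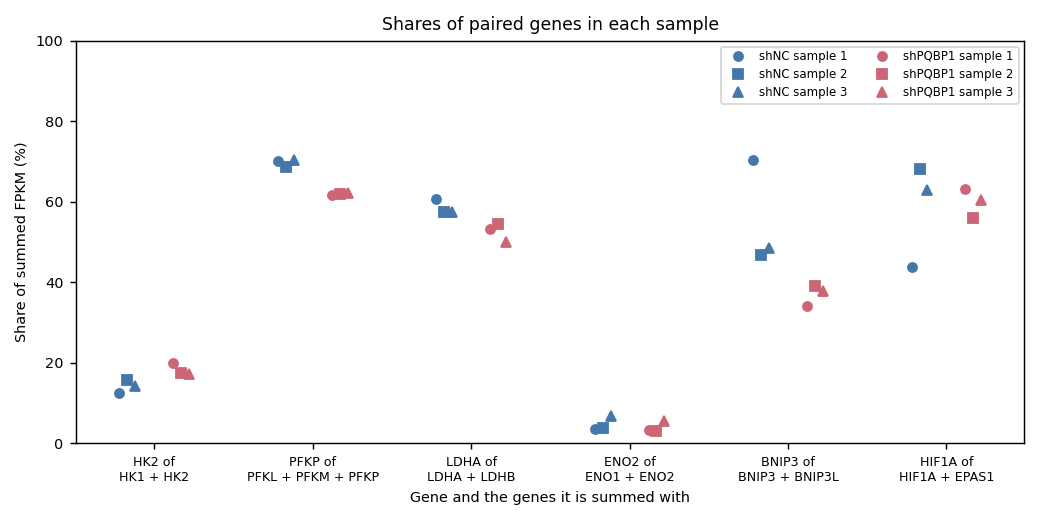
Share of the first gene in the summed FPKM of the genes named on the x axis (y axis, percent) in each shNC sample (blue) and shPQBP1 sample (red). The PFKP share is 68.7% to 70.4% in the shNC samples and 61.6% to 62.3% in the shPQBP1 samples, and LDHA and HK2 also separate by group, while the ENO2 and HIF1A shares overlap.

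PGAM1, which moves the phosphate group of phosphoglycerate, had 272.59, 208.5 and 224.48 FPKM in the shNC samples and 190.82, 180.89 and 169.31 in the shPQBP1 samples. The groups did not overlap (log2 fold change -0.38, limma adjusted p = 0.13). The isomerase GPI, with 18.14 ± 1.89 and 14.75 ± 0.979 FPKM, the kinase PGK1, with 95.94 ± 11.3 and 80.37 ± 2.89, and the enolase ENO1, with 371.2 ± 33.8 and 317.7 ± 23.5, showed the same order of the groups without overlap (SD, n = 3 each). Their log2 fold changes were -0.29, -0.25 and -0.22, and their adjusted p-values from limma 0.165, 0.196 and 0.212. In all 4 of these genes shNC sample 1 was the highest sample, and without it the log2 fold changes were -0.26 for PGAM1, -0.21 for GPI, -0.15 for PGK1 and -0.15 for ENO1. After the GC and length correction they were -0.27 for PGAM1, -0.22 for GPI, -0.35 for PGK1 and -0.09 for ENO1.

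The hexokinases take the first step of glycolysis. HK1 was the main form, with 56.15, 42.11 and 50.06 FPKM in the shNC samples and 39.49, 43.2 and 42.15 in the shPQBP1 samples, and its groups overlapped (log2 fold change -0.24, and -0.14 without shNC sample 1). HK2, the form that hypoxia is known to induce, had 8.12, 7.9 and 8.31 FPKM in the shNC samples and 9.89, 9.14 and 8.83 in the shPQBP1 samples. HK2 was the glycolytic enzyme whose shPQBP1 values were all above the shNC values, with a log2 fold change of 0.19 (limma adjusted p = 0.213). It made up 12.6%, 15.8% and 14.2% of the hexokinase sum in the shNC samples and 20.0%, 17.5% and 17.3% in the shPQBP1 samples.

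GAPDH, a common reference gene, and PKM overlapped between the groups. GAPDH had 2812.25, 2378.29 and 2296.27 FPKM in the shNC samples and 2171.96, 2303.99 and 2258.08 in the shPQBP1 samples (log2 fold change -0.15, 95% interval -0.36 to 0.06, -0.06 without shNC sample 1, but 0.04 with quantile normalization and 0.001 after the GC and length correction). PKM, the pyruvate kinase, had 144.6 ± 13.4 and 129.7 ± 14.4 FPKM (log2 fold change -0.16, -0.09 without shNC sample 1 and 0.009 after that correction). ALDOA, the aldolase, and TPI1 were lowest in shNC sample 2, at 46.01 and 219.37 FPKM, and their groups overlapped. The log2 fold change of ALDOA was 0.09 and turned to -0.18 without that sample, while without shNC sample 1 it was 0.31. That of TPI1 was -0.22, and -0.04 without shNC sample 1. ENO2, the neuronal enolase, had 15.96, 14.02 and 25.38 FPKM in the shNC samples and 10.1, 10.35 and 20.14 in the shPQBP1 samples, and its groups overlapped. Its log2 fold change of -0.47 was the lowest of the 16 tested enzymes, with a wide 95% interval, -1.29 to 0.35 (limma adjusted p = 0.407). It ranged from -0.80 to -0.22 with 1 sample left out. ENO2 was highest in sample 3 of both groups, and each shPQBP1 value was below the shNC value of the same number. The labels do not say whether the numbers pair the samples. Rows for pseudogenes of the members were small beside most parents. The 3 TPI1 rows held 7.77% to 9.89% of the TPI1 total and the 25 GAPDH rows at most 0.879%, while the BNIP3 rows held up to 24.7% in a sample. PFKFB3, which makes the activator of phosphofructokinase, had 4.393 ± 0.305 and 3.987 ± 0.175 FPKM and was the only kinase of the 4 to enter the test (log2 fold change -0.14, limma adjusted p = 0.386, and -0.09 without shNC sample 1).

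Genes around the pathway were read from lists that do not overlap the members, where a call means an adjusted p under 0.05 (1.73% of all genes higher and 1.18% lower). In pyruvate entry to mitochondria, 1 of 11 tested genes was called lower and 0 higher. This was PDHA1, the catalytic subunit of pyruvate dehydrogenase that the PDK kinases phosphorylate, with 18.19, 17.19 and 18.03 FPKM in the shNC samples and 11.59, 12.72 and 12.65 in the shPQBP1 samples. The groups were far apart, with a log2 fold change of -0.53 (limma adjusted p = 0.0261, standard error 0.08). At an unadjusted p under 0.05 the list had 1 gene higher and 2 lower. Beside PDHA1 these were PDP1 and PDK2, named after their values were seen. PDP1, a phosphatase that reactivates pyruvate dehydrogenase, had 8.65, 4.75 and 9.42 FPKM against 16.09, 9.99 and 16.85 (log2 fold change 0.93, limma adjusted p = 0.158). PDK2, a kinase that inactivates it, had 1.91, 1.73 and 1.62 FPKM against 1.25, 1.27 and 1.4 (log2 fold change -0.40, limma adjusted p = 0.138). Neither gene overlapped between the groups, and neither passed the threshold. In glucose and lactate transport, 1 of 7 tested genes was called lower and 0 higher, with the same counts at an unadjusted p under 0.05. This was SLC16A3, the lactate exporter that hypoxia is known to induce, with 13.02, 10.79 and 11.0 FPKM against 8.04, 7.98 and 8.09 (log2 fold change -0.52, limma adjusted p = 0.0499). Its call was lost with median-of-ratios scaling (limma adjusted p = 0.0535) with all genes that have any value above 0 tested (0.0878) and without the mean-variance trend (0.0552).

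Among the other hypoxia targets, 1 of 33 tested genes was called higher and 0 lower, and without adjustment 5 had a higher and 4 a lower value at p under 0.05. This was LOX, which crosslinks collagen, with 11.88, 15.17 and 14.01 FPKM in the shNC samples and 22.62, 22.75 and 23.5 in the shPQBP1 samples. The difference of 0.75 on the log2 scale (limma adjusted p = 0.0246, standard error 0.11) was opposite in sign to that of BNIP3. The median of these 33 genes was 0.06 on the log2 scale, with 20 positive and 13 negative, where the 7 tested hypoxia targets among the members had a median of -0.22. No gene passed the adjusted threshold among 11 tested further glycolytic isozymes and side enzymes, 6 of the pentose phosphate pathway, 13 of the citric acid cycle and 10 further regulators of the hypoxia-inducible factors, where at an unadjusted p under 0.05 the higher and lower genes numbered 1 and 0, 0 and 0, 1 and 2, and 1 and 0. The smallest unadjusted p-values in these lists were found for PFKFB2 (log2 fold change 0.53, limma adjusted p = 0.118), RPE (0.55, adjusted p = 0.221), IDH3G (-0.38, adjusted p = 0.149) and CITED2 (0.31, adjusted p = 0.137). With 1 sample left out, the adjusted p rose as far as 0.119 for PDHA1, 0.179 for SLC16A3 and 0.121 for LOX. PDHA1 and SLC16A3 stayed under 0.05 only without shNC sample 1 (0.033 and 0.0298), and LOX also without shNC sample 2 (0.0161 and 0.0471).

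The difference between the groups followed GC content over all genes, with Spearman's rho of -0.459 across 11385 genes, which are not independent replicates. Among the 28 tested members rho was -0.0755. The median GC content of the members' transcripts was 52.7%, against 47.5% for all tested genes. BNIP3 and LDHA had GC contents of 41.9% and 41.8%, and their log2 fold changes after the GC and length correction were -0.74 (limma adjusted p = 0.0101) and -0.51 (adjusted p = 0.0487). EPAS1, at 52.6%, had 0.56 after the correction (limma adjusted p = 0.0056). HIF1A and BNIP3L, at 39.4% and 37.4%, had 0.37 and 0.19, both smaller than before the correction.

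**Figure D5:**
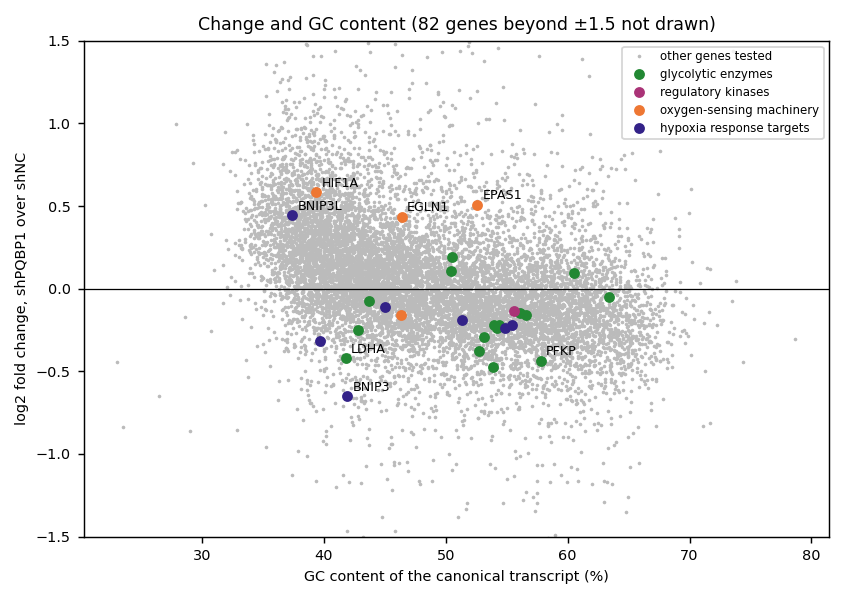
GC content of the canonical transcript (x axis, percent) and log2 fold change, shPQBP1 over shNC (y axis), for tested genes in grey and the members coloured by role. The grey cloud slopes down from left to right. BNIP3 and LDHA, at GC contents of 41.9% and 41.8%, lie at log2 fold changes of -0.65 and -0.42. EPAS1, at a GC content of 52.6%, lies at 0.51.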

How the data were processed

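Per the submitters' notes and the paper's methods, reads were mapped to hg38 with HISAT2 (version 2.2.0), sorted with SAMtools (version 1.9), assembled with StringTie (version 1.3.0) and compared with edgeR. The authors deposited 1 table of FPKM values per gene and sample, rounded to 2 decimals. The annotation release is not given in the sources used here, and the table holds no counts, so the depth is unknown. The authors' own fold change, p-value and q-value columns were not used.

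FPKM values were taken as deposited and compared on log2(FPKM + 0.1), a scale that understates the change of low genes. The 11413 genes that averaged 1 FPKM or more entered a linear model of 3 samples against 3 in limma 3.58.1 under R 4.3.3, moderated along a trend of variance with level, with two-sided p-values adjusted by Benjamini-Hochberg. An exact permutation test of single genes cannot go below 0.1 here and was not used for calls. Alternatives were 2 scalings, 2 filters, 2 pseudocounts, no trend, a replicate block, each sample left out, and a GC and length correction (natural splines, 5 degrees of freedom, canonical transcripts of GENCODE release 44, also the source of gene positions). The steps were tested on simulated data. Summaries were made in Python 3.11.15 and scipy 1.17.1. Promoter windows are from RefSeq, matched by symbol, taking the start site nearest the canonical start.

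The members, lists and tests were chosen with earlier results of these data known. Every member is given. From each other list the genes at an adjusted p under 0.05 are named, or else the gene with the smallest p.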

Additional observations from a re-analysis of the deposited data

How the results depend on the processing

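The number of members at an adjusted p under 0.05 was 2, and it was 4 with quantile normalization (EPAS1, BNIP3, LDHA and PFKP), 4 when genes had to average 10 FPKM (the same 4), 5 after the GC and length correction (those 4 and P4HA1), and 0 to 5 with 1 sample left out. The 5 were found without shNC sample 1, and the 0 without each of the other 5 samples, where all tested genes together gave 30 to 93 calls against 332. All tested genes gave 417 calls with quantile normalization, 938 after the GC and length correction and 466 without shNC sample 1. With the filter at 10 FPKM, 211 of 3661 genes were called. Members at an unadjusted p under 0.05 numbered 7 to 12 and members without overlap 9 to 18 over all alternatives, against 10 and 13. Their median log2 fold change was -0.22 to -0.089 with 1 sample left out. The log2 fold change reversed for PFKL (0.16 after the GC and length correction, 0.046 without shNC sample 1, -0.127 to 0.046 with 1 sample left out), ALDOA (-0.184 without shNC sample 2, -0.184 to 0.311), GAPDH (0.043 with quantile normalization, 0.001 after the GC and length correction), PKM (0.009 after the latter) and VHL (0.039 without shNC sample 1, 0.049 without shPQBP1 sample 3, -0.497 to 0.049). The cause of these changes was not tested.

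Of the other lists, glucose and lactate transport had 0 calls with every gene above 0 tested and 0 with median-of-ratios scaling, against 1. The call of that list, SLC16A3, was also lost without the mean-variance trend and with the replicate block. After the GC and length correction the citric acid cycle had 1 call against 0 and the other hypoxia targets 3 against 1, while all tested genes had 938 against 332. The log2 fold change of PQBP1 was -2.09 to -1.96 with 1 sample left out.

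With the replicate number as a block, no gene of the 11413 had an adjusted p under 0.05 in limma (1840 had an unadjusted p under 0.05), the members' count was 0, and PQBP1 kept its log2 fold change of -2.04 at an adjusted p of 0.0686. The labels do not say whether the numbers pair the samples. Deviations of samples with the same number from their group means correlated at -0.186, -0.138 and -0.0114 over genes. No sample correlated best with its own number. With 3 samples in a group, such correlations over all genes cannot settle whether samples of the same number share a batch. The depth behind each FPKM is unknown, so counting error was not separated from other error, and genes under an FPKM of 1 rest on the fewest reads.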
